A study of Homo sapiens with 18 samples.

Results

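The genes described here switch RAS proteins on and off by protein contact. Of the 9, 4 encode the RASGRP exchange factors (RASGRP1, RASGRP2, RASGRP3 and RASGRP4) and 5 encode GTPase-activating proteins (NF1, RASA1, RASA2, RASA3 and RASAL3). They were taken from a table of 40184 Ensembl gene IDs by the match of ID to symbol, and all 9 were found. RNA-seq of 18 cultures gave their transcript levels in 3 human cell lines of acute myeloid leukaemia. The receptor FLT3 has an internal tandem duplication in Molm-14 and in MV4-11, while the receptor KIT has the N822K change in SKNO-1. Cultures were kept for 24 h in 500 nM RMC-4550 or in its vehicle, DMSO, which makes 6 groups of 3 replicates. RMC-4550 is an allosteric inhibitor of SHP2, the phosphatase that relays receptor tyrosine kinase signals to RAS. The SKNO-1 medium alone held GM-CSF (10 ng/mL), and each genotype is represented by 1 or 2 lines, so line, genotype and growth factor cannot be told apart. The questions were how high each gene was in the vehicle cultures of the 3 lines, and how it changed with RMC-4550 in each.

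RAS proteins are active when bound to GTP and inactive when bound to GDP. Exchange factors open the nucleotide pocket so that GTP can enter, and GTPase-activating proteins speed the hydrolysis that ends the signal. SHP2 acts mainly upstream of the exchange factors SOS1 and SOS2. Several RASGRP proteins are instead recruited to membranes by diacylglycerol, the lipid that phospholipase C makes, and several respond to calcium. RASGRP1 is known from T cells, RASGRP2 from platelets, where it acts on the RAS relative RAP1, RASGRP3 from B cells, and RASGRP4 from mast cells and myeloid cells. Neurofibromin, the product of NF1, is brought to the membrane by SPRED proteins. RASA3 acts on both RAS and RAP1.

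The 250 bases before the RefSeq transcription start are shown for the exchange factor and the GTPase-activating protein that rose in every line (RASGRP4 and RASA3), for the other abundant exchange factor (RASGRP2) and for NF1. They come from RefSeq's GRCh38.p14, where 8 of the 9 genes matched 12 start sites and RASA2 did not. The windows are chr19:38426220-38426469 (minus strand) for RASGRP4, chr13:114132624-114132873 (minus strand, 1 of 2 starts) for RASA3, chr11:64745349-64745598 (minus strand) for RASGRP2 and chr17:31094727-31094976 (plus strand) for NF1. Each is written 5′ to 3′ on the gene's strand. Capitals mark the single motif match in these 4 windows, TGACGTCA, the binding letters of the CREB family, in NF1.
RASGRP4: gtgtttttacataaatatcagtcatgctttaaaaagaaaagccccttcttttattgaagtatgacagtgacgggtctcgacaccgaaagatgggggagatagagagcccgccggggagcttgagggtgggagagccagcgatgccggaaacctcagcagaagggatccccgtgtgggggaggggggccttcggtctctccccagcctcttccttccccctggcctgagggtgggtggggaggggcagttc
RASA3: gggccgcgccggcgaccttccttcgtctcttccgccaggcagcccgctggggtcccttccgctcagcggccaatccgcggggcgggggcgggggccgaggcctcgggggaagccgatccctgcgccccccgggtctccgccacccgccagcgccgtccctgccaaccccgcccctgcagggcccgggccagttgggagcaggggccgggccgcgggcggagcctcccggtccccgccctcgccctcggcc
RASGRP2: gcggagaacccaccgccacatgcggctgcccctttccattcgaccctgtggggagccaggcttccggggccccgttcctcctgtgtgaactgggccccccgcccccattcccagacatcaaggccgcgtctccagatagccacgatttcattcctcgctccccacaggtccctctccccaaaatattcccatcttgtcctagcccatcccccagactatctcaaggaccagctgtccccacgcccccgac
NF1: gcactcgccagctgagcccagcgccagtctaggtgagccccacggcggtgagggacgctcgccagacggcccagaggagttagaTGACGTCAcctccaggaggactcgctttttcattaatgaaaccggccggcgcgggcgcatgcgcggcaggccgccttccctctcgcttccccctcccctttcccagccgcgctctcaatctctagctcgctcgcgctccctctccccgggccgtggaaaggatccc

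The GC content of these windows differed widely, at 57.2% for RASGRP4, 63.6% for RASGRP2, 67.2% for NF1 and 81.2% for RASA3, against a median of 58% over all promoters of the table. Both strands were searched for 6 motifs, which can overlap one another. Of 35116 windows of this length, 1.65% held TGACGTCA, 6.57% the AP-1 letters TGANTCA, 3.42% the ETS letters CCGGAAGT, 2.17% the PU.1-type letters GAGGAAGT, 11.0% the RUNX letters TGTGGT and 6.35% the E-box CACGTG. Elsewhere among the 12 windows, RASAL3 held CACGTG, the first RASGRP3 window held GAGGAAGT and the second held TGTGGT. A match of letters is a description and not a binding site, and the absence of one says only that these letters are not in the window.

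By GENCODE 29 on GRCh38, the build named in the submitters' processing notes, RASGRP4 lies at chr19:38409051-38426305 (minus strand), RASGRP2 at chr11:64726911-64745456 (minus), RASGRP3 at chr2:33436324-33564750 (plus) and RASGRP1 at chr15:38488103-38565575 (minus). RASA3 lies at chr13:113977783-114132611 (minus), RASA2 at chr3:141487047-141615342 (plus), NF1 at chr17:31094927-31382116 (plus), RASA1 at chr5:87267888-87391931 (plus) and RASAL3 at chr19:15451624-15464571 (minus). All 9 are protein-coding genes and the values count reads over the gene, with no site within it. Exons of RASA1 overlap those of CCNH on the other strand over 771 bases, and exons of NF1 overlap those of EVI2A over 152 bases. RASGRP4 shares 38 exonic bases with FAM98C, and RASGRP1 and RASGRP3 share 105 and 70 with antisense RNAs. Strand use in the counting is not given in the sources used here, so reads of such overlaps cannot be assigned to a strand. NF1 also has pseudogene copies elsewhere in the genome, which can take or give reads.

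The libraries held 17434810 to 19959917 reads, and replicates of a group correlated at 0.961 to 0.993 across genes. In 14 libraries, 5.07% to 7.02% of reads fell in mitochondrial genes. It was larger in the other 4, at 15.0% in treated Molm-14 replicate 2, 12.7% and 14.6% in vehicle MV4-11 replicates 1 and 3, and 10.5% in treated MV4-11 replicate 1. For some results in Molm-14 and MV4-11, values without these 4 libraries are therefore given as well. The others are given with all libraries only. Among them are the vehicle differences of RASGRP4, RASGRP2, RASA2 and RASA3, and the changes of RASGRP3 and RASAL3 in Molm-14. The results of marker genes and of related genes, such as those for diacylglycerol, are also given with all libraries only. RUNX1T1, whose fusion with RUNX1 is a known feature of SKNO-1, was read at 13.2 to 14.4 CPM (reads per 1000000 of the scaled library) in the SKNO-1 vehicle libraries and at 0 in those of the other lines. The 7 myeloid markers checked, among them SPI1, CD33 and CSF1R, all had at least 1 CPM in each of the 6 groups. MV4-11 with DMSO lay between the other lines for 52.8% of the 16262 genes fitted and for 6 of the 8 members fitted. Molm-14 vehicle libraries averaged 10 CPM or more for 9261 genes, and 0 of these had less than 1% of their Molm-14 level in MV4-11, against 69 in SKNO-1. In the other direction, 61 of 9416 genes at that level in MV4-11 had less than 1% of it in Molm-14. These counts bear on whether the MV4-11 cultures hold cells of another line, which was not tested, and every MV4-11 value below comes from these libraries.

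In the vehicle cultures, RASGRP4 and RASGRP2 made up almost all RASGRP transcript, and both were lowest in Molm-14 and highest in SKNO-1. RASGRP4 was at 23.1, 25.5 and 23.9 CPM in Molm-14, 55.2, 58.7 and 47.3 in MV4-11, and 75.6, 81.0 and 81.1 in SKNO-1. RASGRP2 was at 26.1, 25.8 and 26.3 CPM in Molm-14, 75.7, 57.0 and 73.3 in MV4-11, and 87.6, 92.5 and 94.2 in SKNO-1. For both genes the libraries of the 3 lines did not overlap. RASGRP4 exceeded its Molm-14 level by 1.15 (log2; 95% interval 0.87 to 1.42) in MV4-11, and in SKNO-1 the excess was 1.71 (1.44 to 1.99; limma adjusted p 2.3e-06 and 7e-09), and SKNO-1 exceeded MV4-11 by 0.57 (adjusted p 0.0028). For RASGRP2 the excess over Molm-14 was 1.38 (1.10 to 1.67) in MV4-11, and 1.81 (1.52 to 2.09) for SKNO-1 (limma adjusted p 3.7e-07 and 5.2e-09). The step of 0.42 in RASGRP2 from MV4-11 to SKNO-1 passed the threshold (adjusted p 0.020), and it was not called with quantile normalization (0.37, adjusted p 0.085) or when replicate 2 of MV4-11 with DMSO or replicate 2 or 3 of SKNO-1 with DMSO was left out. Megakaryocyte and platelet markers were also lowest in Molm-14, with 5 genes summing to 4.33 to 6.92 CPM there with DMSO. The sums were 18.9 to 23.5 in MV4-11 and 23.2 to 23.8 in SKNO-1, which overlap. Against Molm-14, ITGA2B was called higher in both lines and GP9 in MV4-11. Between SKNO-1 and MV4-11, 0 of 3 tested markers were called. With DMSO, PF4 was at 0 reads in every library and PPBP was at 0 in Molm-14 and MV4-11. The part of these markers in the RASGRP2 difference was not tested.

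RASGRP3 and RASGRP1 were scarce. RASGRP3 was at 1.33, 1.67 and 1.11 CPM in Molm-14, 0.592, 0.563 and 0.658 in MV4-11 and 1.85, 1.56 and 1.55 in SKNO-1 with DMSO, which is 11 reads in each MV4-11 library. The MV4-11 libraries did not overlap those of the other lines, with log2 differences of -1.13 from Molm-14 and, for SKNO-1 over MV4-11, 1.41. All 3 MV4-11 libraries were under the 1 CPM that testing asks of 3 samples, so the gene entered both comparisons through the higher line alone, and its calls there carry no weight. Molm-14 and SKNO-1 differed by 0.27, with a 95% interval from -0.19 to 0.74. RASGRP1 had 0 to 10 reads in every one of the 18 libraries, at most 0.566 CPM, and was outside the fit. Its counts were 3, 0 and 4 reads in Molm-14 with DMSO and 2, 7 and 10 with RMC-4550, 9, 3 and 8 against 2, 5 and 1 in MV4-11, and 3, 4 and 4 against 7, 6 and 4 in SKNO-1. At this depth no difference in RASGRP1 was detectable between groups. T-cell markers, the setting in which RASGRP1 is best known, were also near 0, with CD3D at 0 reads in 5 of the 6 groups and 5 genes summing to at most 2.30 CPM in any library. B-cell markers, the setting of RASGRP3, summed to 16.3 to 21.1 CPM over 5 genes in the vehicle libraries, with MS4A1 at 0 in Molm-14 and SKNO-1.

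Among the GTPase-activating proteins, RASA2 and RASA3 ran in the opposite order to RASGRP2 and RASGRP4, highest in Molm-14 and lowest in SKNO-1. RASA3 was at 188, 191 and 195 CPM in Molm-14, 130.2, 165 and 138 in MV4-11, and 119, 116 and 114 in SKNO-1. RASA2 was at 51.6, 45.5 and 50.9 CPM in Molm-14, 37.2, 36.9 and 31.0 in MV4-11, and 26.5, 25.1 and 25.9 in SKNO-1. The libraries of the 3 lines did not overlap for either gene. Against Molm-14, MV4-11 was lower in RASA3 by 0.42 and SKNO-1 by 0.72 on the log2 scale (limma adjusted p 0.00053 and 9e-07), and in RASA2 by 0.50 and 0.93 (0.0016 and 1.9e-06). From MV4-11 to SKNO-1, RASA3 fell by 0.31 and RASA2 by 0.43 on the log2 scale (limma adjusted p 0.0074 and 0.0060), and the RASA3 step was not called in a fit of these groups alone (adjusted p 0.062).

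RASAL3, a GTPase-activating protein of blood cells, was at 67.9 to 72.8 CPM in Molm-14, 75.5 to 81.3 in MV4-11 and 89.1 to 98.1 in SKNO-1 with DMSO. SKNO-1 exceeded Molm-14 by 0.43 and MV4-11 by 0.25 on the log2 scale (limma adjusted p 8.5e-05 and 0.014), and the difference from MV4-11 was not called without replicate 3 of SKNO-1 with DMSO (0.21 to 0.29 over the left-out libraries), nor with no filter, quantile normalization or a fit of the 2 groups alone (adjusted p 0.059, 0.098 and 0.064). The step of 0.18 from Molm-14 to MV4-11 (adjusted p 0.048) was not called in 8 of 11 alternative analyses, 1 of which drops the 4 libraries over 10% mitochondrial reads, nor without any 1 of the Molm-14 vehicle libraries or without replicate 1 or 3 of MV4-11 with DMSO (0.16 to 0.22). NF1 was at 90.3, 93.8 and 92.1 CPM in Molm-14, 87.6, 120 and 78.4 in MV4-11 and 125, 118 and 110.1 in SKNO-1, and no pair of lines passed the threshold. SKNO-1 exceeded Molm-14 in NF1 by 0.35 (limma adjusted p 0.055), which was called in 6 alternatives. Among them were the mitochondrial covariate (limma adjusted p 1.8e-05) and the fit without the 4 libraries. That fit left out no vehicle library of SKNO-1 or Molm-14, and the difference stayed at 0.35. RASA1, whose product docks on activated receptors, was at 43.7, 42.3 and 42.8 CPM in Molm-14, 23.8, 38.7 and 21.8 in MV4-11 and 37.5, 35.9 and 32.9 in SKNO-1. In both genes the 2 low MV4-11 libraries were those with over 10% mitochondrial reads. From Molm-14 to SKNO-1, RASA1 differed by -0.28 on the log2 scale, which was not called (limma adjusted p 0.30). It was called in a fit of those groups alone (limma adjusted p 0.00066) and with the mitochondrial covariate (-0.32, limma adjusted p 0.0080). With all libraries RASA1 was lower in MV4-11 than in Molm-14 by 0.66 on the log2 scale (limma adjusted p 0.025), a call lost without any 1 of the Molm-14 vehicle libraries or without replicate 1 or 3 of MV4-11 with DMSO (-0.91 to -0.50). Without the 4 libraries that difference was -0.15 and was not called, and NF1 was instead higher in MV4-11 than in Molm-14, by 0.38 (limma adjusted p 0.00053, with 1 MV4-11 vehicle library left).

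In all, 7 of 8 tested members differed between MV4-11 and Molm-14 (3 higher and 4 lower in MV4-11), where 54.2% of all tested genes were called (25.1% higher, 29.1% lower). Between SKNO-1 and Molm-14, 5 of 8 differed (3 higher and 2 lower in SKNO-1) against 65.3% of genes (31.8% higher, 33.6% lower). Between SKNO-1 and MV4-11, 6 of 8 differed (4 higher and 2 lower in SKNO-1) against 42.5% (20.1% higher, 22.4% lower). RASGRP3, which entered through the higher line, is 1 of the calls in each comparison with MV4-11. The members' share was above that of all genes in the comparisons with MV4-11 and near it in the comparison of SKNO-1 with Molm-14.

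**Figure D1:**
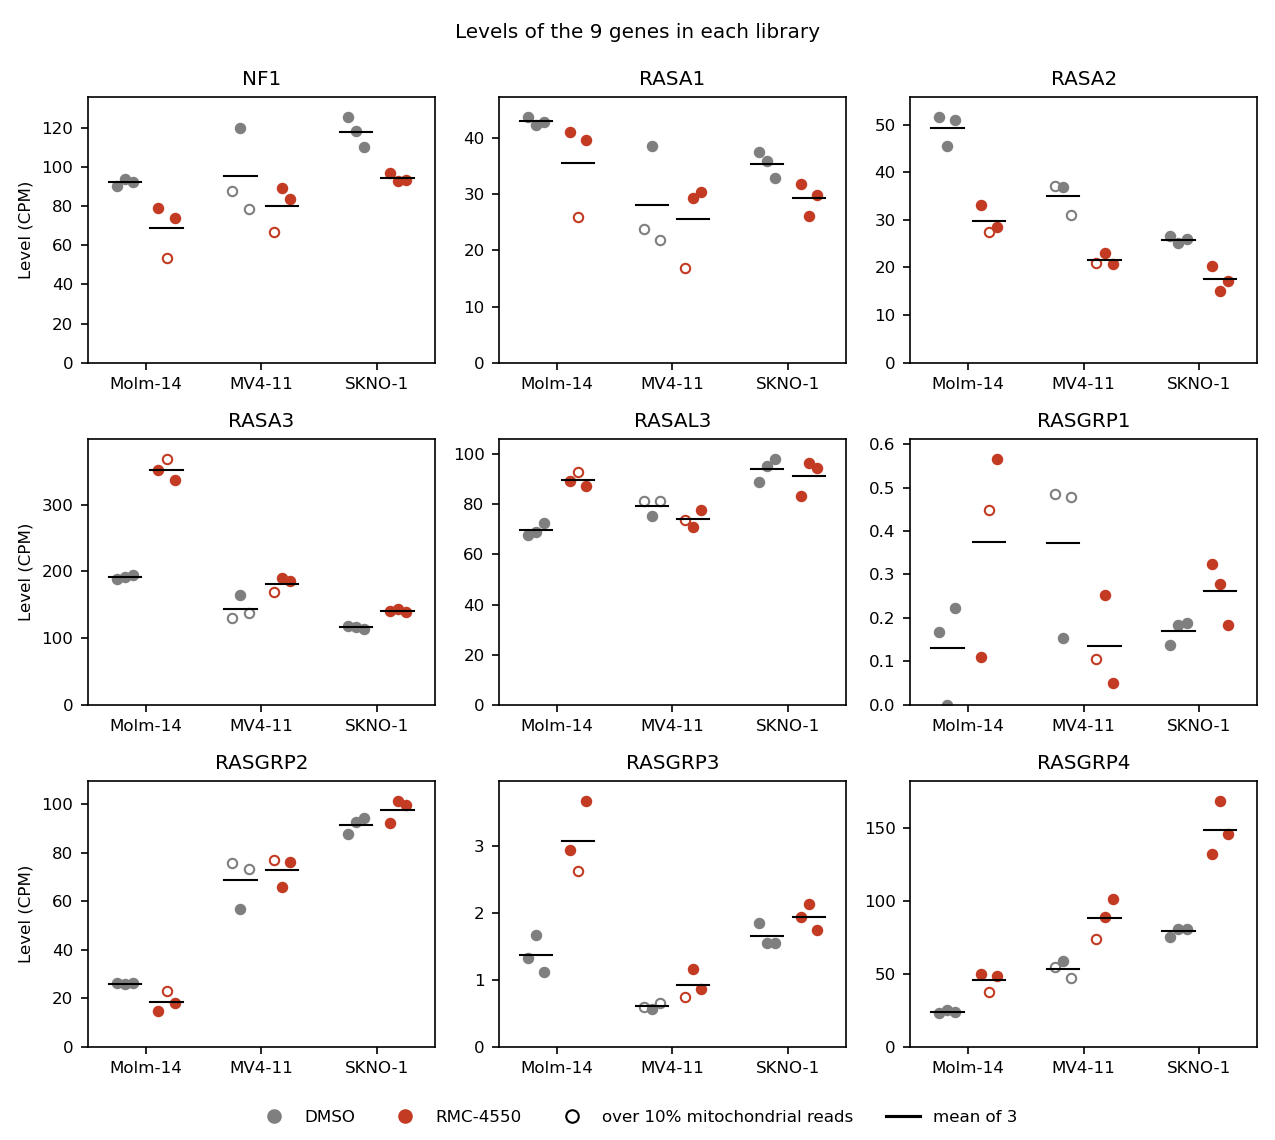
Level of each gene in CPM (vertical axes, from 0) in every library by line, with DMSO in grey, RMC-4550 in red, open circles for libraries with over 10% mitochondrial reads and bars for the mean of 3 replicates. RASGRP4 and RASA3 sit higher and RASA2 lower with RMC-4550 in all 3 lines, and the spread of NF1 and RASA1 in Molm-14 with RMC-4550 and in MV4-11 follows the open circles.

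RASGRP4 rose with RMC-4550 in all 3 lines. With the inhibitor it was at 50.2, 37.9 and 48.6 CPM in Molm-14, 74.4, 89.5 and 101.7 in MV4-11, and 132, 169 and 146 in SKNO-1. In each line every treated library lay above every vehicle library. The mean rose from 24.2 ± 1.27 to 45.6 ± 6.66 CPM in Molm-14, from 53.7 ± 5.85 to 88.5 ± 13.7 in MV4-11 and from 79.2 ± 3.19 to 149 ± 18.4 in SKNO-1 (SD, n = 3 each), which are ratios of 1.89, 1.65 and 1.88. The log2 changes were 0.90 (95% interval 0.63 to 1.18), 0.71 (0.44 to 0.99) and 0.90 (0.63 to 1.18), with limma adjusted p of 4.6e-05, 0.0015 and 8.7e-05. Treated Molm-14 libraries (37.9 to 50.2 CPM) overlapped the vehicle libraries of MV4-11 (47.3 to 58.7). Without the libraries over 10% mitochondrial reads, the change was 1.03 in Molm-14 and 0.70 in MV4-11, the latter with 1 vehicle library left. The summed myeloid markers were also higher with RMC-4550, at 678 to 742 CPM against 547 to 566 in Molm-14, 902 to 999 against 794 to 835 in MV4-11, and 1393 to 1536 against 1147 to 1216 in SKNO-1. Of these 7 genes, SPI1 and CSF1R were called higher and MPO lower in Molm-14, with a median log2 change of -0.06. Only ITGAM and CSF1R were called in MV4-11 and in SKNO-1, both higher, with medians of 0.46 and 0.32. Mast cell markers, 4 genes of the other cell type in which RASGRP4 is known, summed to 0.11 to 0.22 CPM in vehicle and 0.064 to 0.17 in treated Molm-14. The sums were 1.33 to 1.45 and 1.57 to 2.38 in MV4-11, and 1.13 to 1.85 and 0.974 to 1.94 in SKNO-1, with CPA3 at 0 reads in the first 2 lines. The part of either marker list in the RASGRP4 change was not tested. In bulk RNA, fewer cells of a type and less RNA per cell cannot be told apart.

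The difference in the RASGRP4 response between MV4-11 and Molm-14 was -0.19 (95% interval -0.58 to 0.20), between SKNO-1 and Molm-14 it was 0.00 (-0.39 to 0.39), and neither passed the threshold. With the mitochondrial share as a covariate the MV4-11 difference was -0.45 (limma adjusted p 0.017), and without the 4 libraries it was -0.33 (0.13).

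RASGRP2, which is known to act on RAP1, fell in Molm-14 and was not called in MV4-11 or SKNO-1 in the main fit. It was at 14.6, 22.9 and 18.2 CPM in Molm-14 with RMC-4550, each below all 3 vehicle libraries. The change was -0.51 on the log2 scale (95% interval -0.80 to -0.23, limma adjusted p 0.0056), and -0.68 without replicate 2, the library with 15.0% mitochondrial reads. After quantile normalization it was -0.34 and after a fit of Molm-14 alone -0.51, and neither was called. In MV4-11 the treated libraries were at 76.8, 66.1 and 76.2 CPM and in SKNO-1 at 92.4, 101.3 and 99.5, overlapping the vehicle libraries in both. The log2 change was 0.10 in each, with 95% intervals from -0.19 to 0.38. Among the MV4-11 libraries under 10% mitochondrial reads, with 1 vehicle library left, it was 0.32. The response in MV4-11 exceeded that in Molm-14 by 0.61 (95% interval 0.20 to 1.01, limma adjusted p 0.037). That call was lost without any 1 of the Molm-14 vehicle libraries, replicate 1 or 3 of Molm-14 with RMC-4550, or replicate 3 of either MV4-11 group (0.45 to 0.77). It was also lost with no filter, quantile normalization, a fit of these lines alone and eBayes without a trend (limma adjusted p 0.082, 0.17, 0.11 and 0.053). The difference was 0.99 without the 4 libraries, where the 1 vehicle library left for MV4-11 is the lowest of its group in RASGRP2. The SKNO-1 response exceeded that of Molm-14 by 0.61 as well (adjusted p 0.052), and 0.77 without the 4 libraries (7.9e-05).

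RASGRP3 rose in Molm-14, from a low level, to 2.95, 2.63 and 3.68 CPM, which is 54, 41 and 65 reads against 24, 29 and 20 with DMSO. The change was 1.16 (log2; 95% interval 0.69 to 1.62, limma adjusted p 0.00048). In SKNO-1 the treated libraries, at 1.94, 2.13 and 1.75 CPM, overlapped the vehicle libraries and the change was 0.23 (-0.23 to 0.69). In MV4-11 the gene had 14, 23 and 17 reads with RMC-4550 against 11 in each vehicle library, below the level set for testing. The RASGRP3 response in SKNO-1 was lower than in Molm-14 by 0.93, which did not pass the threshold (limma adjusted p 0.066), and by 1.04 without the 4 libraries, which did (0.025). PAX5, a B-cell marker, fell in Molm-14 from 15.8 ± 1.09 to 6.78 ± 1.91 CPM while RASGRP3 rose, and the 5 B-cell markers summed to 8.09 to 11.0 CPM there with RMC-4550. CD28 accounted for nearly all of the T-cell marker sum in Molm-14, at 0.170 ± 0.060 CPM with DMSO and 1.97 ± 0.54 with RMC-4550 (SD, n = 3), with CD3D, CD3E and CD2 at 0 reads in the treated libraries. Their part in the RASGRP3 change was not tested.

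Divided by transcript length, so that genes can be added, the 4 RASGRP genes summed with DMSO to 16.4 ± 0.35 CPM per kb for Molm-14, 39.4 ± 2.66 for MV4-11 and 55.0 ± 2.07 for SKNO-1 (SD, n = 3). With RMC-4550 the sums were 20.7 ± 0.94, 51.4 ± 4.37 and 78.2 ± 7.01, and in each line the lowest treated library lay above the highest vehicle library. RASGRP4 was 44.6% ± 1.39 of the sum with DMSO and 66.3% ± 7.75 with RMC-4550 in Molm-14, and 43.5% ± 0.25 and 57.4% ± 1.97 in SKNO-1. In MV4-11 the shares of 41.3% ± 5.93 and 51.8% ± 4.68 overlapped between libraries. These sums use the longest coding transcript of each gene. By the length of all exons, RASGRP4 already exceeded RASGRP2 with DMSO in every line, at 56.6%, 53.0% and 55.5% of the sum, so which of them is the more abundant transcript depends on the length used.

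**Figure D2:**
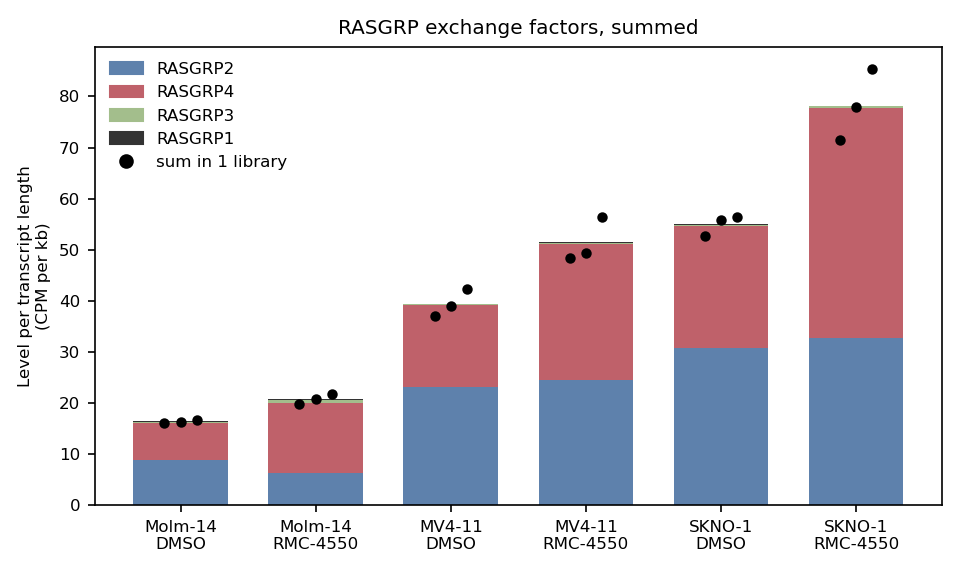
Summed level of the 4 RASGRP genes per transcript length (CPM per kb, vertical axis from 0) in the 6 groups, with stacked bars for the group mean of each gene and black points for the sum in each library, sorted within the group. The sum rises from Molm-14 to SKNO-1 and with RMC-4550 in each line, and the RASGRP4 part of the bar grows in each line.

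RASA3 rose in every line, and by most in Molm-14. With RMC-4550 it was at 352, 368 and 336 CPM in Molm-14, 169.8, 190.0 and 185 in MV4-11, and 140.0, 143 and 139 in SKNO-1. Every treated library lay above every vehicle library of its line, by a narrow margin in MV4-11, where vehicle replicate 2 was at 165 CPM. The log2 change was 0.88 in Molm-14 (95% interval 0.70 to 1.05, limma adjusted p 5.7e-07), 0.34 in MV4-11 (0.16 to 0.51, adjusted p 0.011) and 0.28 in SKNO-1 (0.10 to 0.45, adjusted p 0.019). The MV4-11 response was smaller than that of Molm-14 by 0.54 (interval of the difference -0.79 to -0.29, limma adjusted p 0.0058), and the SKNO-1 response by 0.60 (-0.85 to -0.35, limma adjusted p 0.0031). MV4-11 and SKNO-1 differed by -0.06 (-0.31 to 0.19). Without the 4 libraries the changes were 0.85 in Molm-14 and 0.19 in MV4-11 (limma adjusted p 2.5e-10 and 0.033), and the call in MV4-11 was lost when replicate 1 or 3 with DMSO or replicate 2 with RMC-4550 was left out (0.27 to 0.44 over the 6 libraries) and in a fit of MV4-11 alone (adjusted p 0.20). In SKNO-1 the change was not called without vehicle replicate 2 or 3 or treated replicate 2 (0.26 to 0.29), nor with no filter on low values (adjusted p 0.072).

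RASA2 fell in every line. With RMC-4550 it was at 33.2, 27.5 and 28.5 CPM in Molm-14, 21.02, 23.1 and 20.8 in MV4-11, and 20.3, 15.2 and 17.1 in SKNO-1, each below all vehicle libraries of the line. The means fell from 49.3 ± 3.33 to 29.7 ± 3.01, from 35.0 ± 3.50 to 21.7 ± 1.29 and from 25.8 ± 0.74 to 17.5 ± 2.57 CPM (SD, n = 3). On the log2 scale the changes were -0.73 (95% interval -0.97 to -0.49), -0.69 (-0.93 to -0.45) and -0.57 (-0.81 to -0.33), with limma adjusted p of 8.1e-05, 0.00058 and 0.0013. Without the 4 libraries they were -0.68 in Molm-14 and -0.75 in MV4-11. No pair of lines differed in the RASA2 response, with intervals of the difference from -0.30 to 0.38 for MV4-11 against Molm-14 and from -0.18 to 0.50 for SKNO-1 against Molm-14. RASA2 and RASGRP4, which moved in opposite directions with the drug and between lines, correlated at -0.932 over the 18 libraries, points that share lines and treatment groups.

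RASAL3 rose in Molm-14 and was not called in the other lines. With RMC-4550 it was at 89.4, 92.9 and 87.3 CPM in Molm-14, all above the vehicle libraries, a change of 0.36 on the log2 scale (95% interval 0.21 to 0.52, limma adjusted p 0.00091). In MV4-11 the treated libraries spanned 71.1 to 77.6 CPM and in SKNO-1 83.5 to 96.4, overlapping their vehicle libraries, with changes of -0.10 (-0.25 to 0.06) and -0.04 (-0.20 to 0.11). The MV4-11 response was lower than that of Molm-14 by 0.46 (limma adjusted p 0.0082) and the SKNO-1 response by 0.41 (limma adjusted p 0.020). Without the 4 libraries those differences were -0.36 and -0.38, the first with 1 MV4-11 vehicle library left. The SKNO-1 difference was not called when replicate 1 or 2 of Molm-14 with DMSO, replicate 2 or 3 of SKNO-1 with DMSO or replicate 1 of SKNO-1 with RMC-4550 was left out (-0.45 to -0.34), nor with no filter (adjusted p 0.096).

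NF1 and RASA1 had lower means with RMC-4550 in all lines, and their spread followed the mitochondrial share. NF1 was at 79.1, 53.6 and 73.7 CPM in Molm-14 with RMC-4550, 66.6, 89.4 and 83.4 in MV4-11, and 97.0, 92.9 and 93.5 in SKNO-1. The treated libraries lay below the vehicle libraries in Molm-14 and SKNO-1 and overlapped them in MV4-11. The log2 changes were -0.44 (95% interval -0.77 to -0.11), -0.24 (-0.57 to 0.09) and -0.32 (-0.65 to 0.01). Of these, only the Molm-14 change was called (limma adjusted p 0.029, 0.36 and 0.15), and it was not called without any 1 of the Molm-14 vehicle libraries or without replicate 2 with RMC-4550 (-0.55 to -0.27). It was also not called with no filter, quantile normalization (-0.29) or a fit of Molm-14 alone (limma adjusted p 0.056, 0.059 and 0.058). Without all 4 libraries over 10% mitochondrial reads, NF1 fell in each line, by 0.27, 0.47 and 0.32 on the log2 scale (limma adjusted p 0.00097, 0.00044 and 9.9e-05). In MV4-11 this left 1 vehicle and 2 treated libraries, and the single one was taken to vary like the other groups. No SKNO-1 library was left out, so its change was the same as with all libraries and only the shared spread differed.

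RASA1 was at 41.0, 25.9 and 39.7 CPM in Molm-14 with RMC-4550, 16.9, 29.4 and 30.4 in MV4-11, and 31.8, 26.2 and 29.8 in SKNO-1. The lowest library of each of the first 2 groups was the one with over 10% mitochondrial reads. The treated libraries lay below all vehicle libraries in Molm-14 and SKNO-1 and overlapped them in MV4-11. The log2 changes of -0.30, -0.14 and -0.28 did not pass the threshold (limma adjusted p 0.29, 0.76 and 0.42). A fall was called in MV4-11 with the mitochondrial share as a covariate (-0.43, limma adjusted p 0.0045). In SKNO-1 it was called in a fit of that line alone (-0.28, limma adjusted p 0.013). Without the 4 libraries the change was -0.09 in Molm-14 and -0.37 in MV4-11, where 1 vehicle library was left. It stayed at -0.28 in SKNO-1, which lost no library. Reads of the overlap with CCNH may be part of the RASA1 values, since strand use in the counting is not given.

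**Figure D3:**
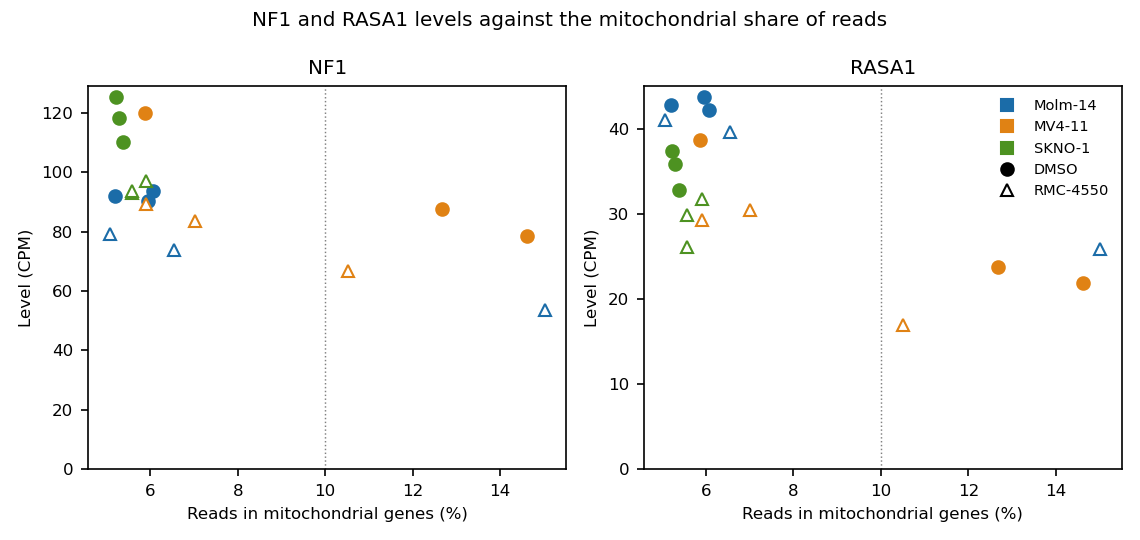
Level of NF1 (left) and RASA1 (right) in CPM, vertical axes from 0, against the percent of reads in mitochondrial genes in each of the 18 libraries, with circles for DMSO, open triangles for RMC-4550, colours for lines and a dotted line at 10%. The 4 libraries to the right of the line hold the lowest levels of both genes in their groups.

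Per transcript length, the 5 GTPase-activating proteins summed to 94.5 ± 1.76 CPM per kb in Molm-14 with DMSO and 132 ± 3.09 with RMC-4550 (SD, n = 3), and the libraries did not overlap. RASA3 made up 48.4% ± 0.38 of the sum with DMSO and 63.9% ± 2.28 with RMC-4550. In MV4-11 the sums spanned 75.1 to 88.8 CPM per kb with DMSO and 76.5 to 86.2 with RMC-4550, and in SKNO-1 79.1 to 80.1 and 78.6 to 80.5, overlapping in both. Within those sums the share of RASA3 was 43.0% ± 1.76 against 52.3% ± 0.94 in MV4-11 and 34.7% ± 0.54 against 42.1% ± 0.65 in SKNO-1. RASA2 fell from 9.30% ± 0.57 to 4.02% ± 0.35 of the sum in Molm-14, from 7.84% ± 0.79 to 4.66% ± 0.32 in MV4-11 and from 5.77% ± 0.18 to 3.91% ± 0.63 in SKNO-1.

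Counted together, 7 of 8 tested members were called in Molm-14 (4 higher, 3 lower), where 46.7% of all 13971 tested genes were called (21.5% higher, 25.2% lower). In MV4-11, 3 of 7 were called (2 higher, 1 lower) against 13.9% of 14739 genes (5.85% higher, 8.03% lower). In SKNO-1, 3 of 8 were called (2 higher, 1 lower) against 27.1% of 14670 (10.8% higher, 16.2% lower). The median log2 change of the tested members was 0.03 for Molm-14, -0.10 for MV4-11 and 0.03 for SKNO-1, beside -0.06, -0.01 and -0.05 over all tested genes. RASGRP4 and RASA3 were among the 3.11% of genes called higher in all 3 lines, and RASA2 among the 5.8% called lower in all 3. Among all calls in SKNO-1, 40.0% were higher with the deposited scaling and 50.4% with median-ratio scaling. For the difference in response, 3 of 7 members were called between MV4-11 and Molm-14 (1 higher, 2 lower), beside 19.5% of genes (9.12% higher, 10.3% lower). Between SKNO-1 and Molm-14, 2 of 8 were called, both lower, beside 10.9% (4.14% higher, 6.73% lower). Between SKNO-1 and MV4-11, limma called 0 of 7, beside 1.66% of genes (0.482% higher, 1.17% lower). In that last comparison 0 had an unadjusted p under 0.05 and voom weights also called 0.

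**Figure D4:**
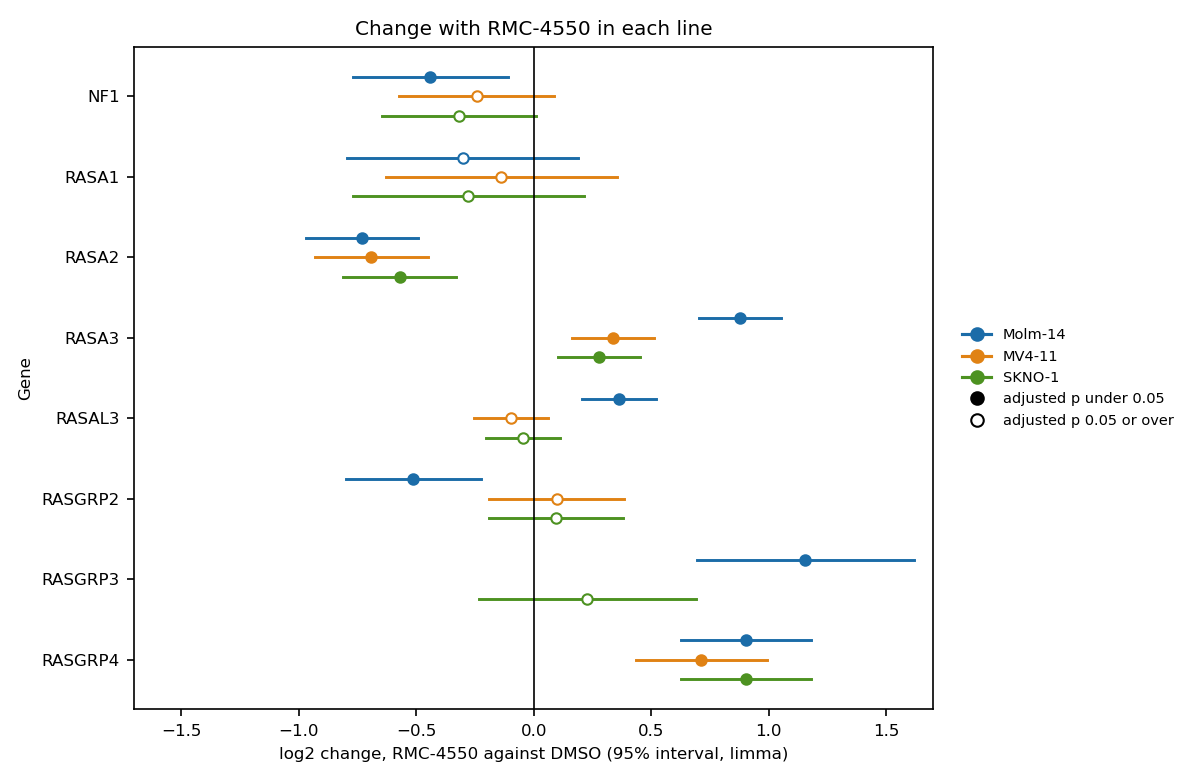
Change with RMC-4550 on the log2 scale (horizontal axis) for the 8 genes in the fit, by line, with 95% intervals from limma and filled points for an adjusted p under 0.05. RASA2 is below 0 and RASA3 and RASGRP4 above 0 in all 3 lines, while RASGRP2 and RASAL3 pass the test only in Molm-14, and RASGRP3 was not tested in MV4-11.

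Of the other exchange factors for RAS, SOS1 was at 74.4 ± 0.51 CPM and SOS2 at 90.7 ± 3.30 in Molm-14 with DMSO (SD, n = 3), and neither was called in any line. Of the 4 genes in this list, 3 were tested in each line, and 1 was called in MV4-11 and in SKNO-1. RASGRF2, a calcium-regulated exchange factor, averaged 0.656 CPM with DMSO and 2.42 with RMC-4550 in Molm-14, where it entered the test through the treated libraries, so no test is given. Its relative RASGRF1 rose in SKNO-1 from 2.39 to 4.82 CPM, by 1.00 on the log2 scale (limma adjusted p 0.018). In MV4-11 it averaged 1.50 CPM with DMSO and 2.89 with RMC-4550. There it reached the level for testing only with the help of treated libraries, so its call carries no weight. The median log2 change of the list was 0.05 for MV4-11 and -0.01 for SKNO-1.

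Among further GTPase-activating proteins, DAB2IP fell in Molm-14 by 1.61 on the log2 scale, from 4.46 to 1.46 CPM (limma adjusted p 0.0050). RASAL1 averaged 0.189 CPM with DMSO and 1.46 with RMC-4550 there, and since it entered the test through the treated libraries no test is given. RASA4 and RASA4B, near-identical copies whose reads cannot be separated with certainty, rose there by 1.21 and 0.89 (limma adjusted p 0.0023 and 0.0012). In MV4-11 and SKNO-1, 0 of 5 tested were called. Of the RAS genes themselves, RRAS and MRAS rose in Molm-14 by 0.94 and 0.57 (limma adjusted p 0.0014 and 0.0028). In MV4-11 0 of 6 and in SKNO-1 0 of 5 RAS genes were called.

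The adaptor SPRED2, which carries neurofibromin to the membrane, fell in all 3 lines. It went from 46.4 ± 1.48 to 28.1 ± 5.30 CPM in Molm-14, from 49.4 ± 5.76 to 33.6 ± 3.96 in MV4-11 and from 39.1 ± 2.12 to 17.0 ± 0.81 in SKNO-1 (SD, n = 3). The log2 changes were -0.74, -0.55 and -1.20 (limma adjusted p 0.00024, 0.0086 and 4.1e-06). SPRED1 fell in Molm-14 by 1.32 on the log2 scale (limma adjusted p 0.0079) and was at or under 1 read in every SKNO-1 library. SPRED3 rose in Molm-14 by 1.15 and in SKNO-1 by 0.68 (limma adjusted p 4.6e-05 and 0.0060). LZTR1, the remaining gene of this list and an adaptor for RAS turnover, was not called in any line.

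Diacylglycerol, which recruits several RASGRP proteins, is made by phospholipase C and removed by diacylglycerol kinases. PLCG2, the phospholipase of blood cell receptors, rose in all 3 lines, with log2 changes of 0.37 (Molm-14), 0.45 (MV4-11) and 0.33 (SKNO-1), each called (limma adjusted p 0.012, 0.013 and 0.036). Its mean went from 194 to 251 CPM, from 132 to 178 and from 146 to 184. PLCG1 fell in MV4-11 by 0.54 and in SKNO-1 by 0.76 on the log2 scale (limma adjusted p 0.013 and 0.00048). Of 4 phospholipase genes tested, 3 rose in Molm-14, 1 rose and 2 fell in MV4-11, and 2 rose and 2 fell in SKNO-1. The called shares of all tested genes were 46.7%, 13.9% and 27.1% in that order. Of 7 kinase genes tested, DGKZ rose and DGKG and DGKE fell in Molm-14, by 0.40, 0.90 and 0.28 on the log2 scale, and only DGKD was called in MV4-11 and SKNO-1, where it fell by 0.38 and 0.52.

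Among protein kinases C that bind diacylglycerol, PRKCE was called in opposite directions. It fell in Molm-14 from 12.1 ± 0.72 to 7.43 ± 2.63 CPM and rose in MV4-11 from 14.4 ± 4.91 to 23.6 ± 4.70 and in SKNO-1 from 15.9 ± 0.37 to 37.7 ± 2.95 (SD, n = 3). The changes were -0.77, 0.75 and 1.24 on the log2 scale (limma adjusted p 0.014, 0.044 and 0.00092). The response of MV4-11 exceeded that of Molm-14 by 1.51 and that of SKNO-1 exceeded it by 2.00 (limma adjusted p 0.0065 and 0.0011). PRKCB fell in Molm-14 by 0.49 and rose in SKNO-1 by 0.47 on the log2 scale, a difference of 0.96 (limma adjusted p 0.0097). Of 5 genes of this list tested, 1 rose and 3 fell in Molm-14, 1 rose in MV4-11 and 2 rose in SKNO-1. For RAP1, a RAS relative and target of RASGRP2 and RASA3, 2 of 12 tested genes and regulators rose and 1 fell in Molm-14, 2 of 13 rose in MV4-11 and 1 of 13 rose in SKNO-1. RAP1GAP2, which switches RAP1 off, rose in Molm-14 by 0.62 and in MV4-11 by 0.39 (limma adjusted p 0.00057 and 0.042).

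The 3 members with the widest range of group means were compared with 11014 genes of at least 5 CPM on average by Pearson's correlation over the 18 libraries. For RASGRP4 the closest were PIGV (r 0.989) and AHNAK2 (0.987), for RASGRP2 SLC27A5 (0.989) and CYP2S1 (0.988), and for RASGRP3 ABHD4 (0.899) and LINC00649 (0.878). The points share lines, treatments and library scaling, and the values are a description of likeness only.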

How the data were processed

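Per the labels' protocols, RNA with poly(A) tails was captured and read on DNA nanoballs. The submitters' processing notes name FastQC, STAR, limma and GRCh38, and the counter, annotation and low-value filter are not given in the sources used here. The authors deposited log2 values: from the values, log2 of reads plus 0.5 per 1000000 reads of an effective library (scaling factors 0.890 to 1.11). Undoing this gave whole reads, within 0.05, for 100% of values up to 200 reads. CPM was computed from those reads, and all 18 columns were used.

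limma 3.58.1 in R 4.3.3 (lmFit, eBayes with an intensity trend, two-sided) was fitted to the deposited log2 values of 16262 genes that reached 1 CPM in 3 or more samples, with 1 coefficient per group. A gene was tested in a line, or in a pair of lines' vehicle groups, where at least 3 of the 6 samples had 1 CPM, and the p-values were adjusted by Benjamini-Hochberg over all genes tested (call at adjusted p under 0.05). The scripts were tested on simulated data. The labels call the replicates biological but do not say how cultures were separated, so p-values measure only the spread between these samples. Members, lists and tests were chosen with earlier results of these data known. All 9 members are named, and related genes by their calls within fixed lists, of which some are not reported here. Gene lengths came from GENCODE 29. Figures used matplotlib 3.10.9.

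Alternatives changed the scale (log2(CPM + 1)), the filter (none, or a mean of 5 CPM or more), the scaling (median ratio or quantile) and the model. Model changes were a fit of the compared samples alone, a replicate block, eBayes with no trend, voom weights from the recovered reads, and a covariate for the mitochondrial share. Libraries were also left out 1 at a time, and the 4 over 10% mitochondrial reads together.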

Additional observations from a re-analysis of the deposited data

Results flagged for a closer look

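The difference in response between lines passed its own test for 3 genes, with Molm-14 on 1 side each time. RASA3 rose less in MV4-11 than in Molm-14 by a difference of -0.54 (limma adjusted p 0.0058) and less in SKNO-1 by -0.60 (limma adjusted p 0.0031), and every treated library was above every vehicle library in each line. RASAL3 was higher in 3 of 3 treated Molm-14 libraries than in any vehicle library and overlapped in the other lines, which gave differences of -0.46 for MV4-11 and -0.41 for SKNO-1 (limma adjusted p 0.0082 and 0.020). RASGRP2 was lower in 3 of 3 treated Molm-14 libraries and overlapped in MV4-11, a difference of 0.61 (limma adjusted p 0.037) that was not called under 4 other analyses (adjusted p 0.053 to 0.17) or with any of 7 libraries left out. Molm-14 with RMC-4550 and MV4-11 hold the 4 libraries with over 10% mitochondrial reads. Without them these 5 differences were -0.66, -0.57, -0.36, -0.38 and 0.99. Those of MV4-11 (-0.66, -0.36 and 0.99) then rest on 1 vehicle library. For RASGRP2 that library was the lowest of its group, at 57.0 CPM against 75.7 and 73.3. The 2 differences for RASA3 share the Molm-14 libraries, as do those for RASAL3.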

How the results depend on the processing

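RASA2 and RASGRP4 in all 3 lines and RASA3 in Molm-14 kept their direction and their call under every alternative run. Of 578 log2 changes under alternatives other than leaving out 1 library, 516 kept direction and side of the threshold, 27 lost the call, 28 gained it and 7 changed sign. Of 354 with 1 library left out, the numbers were 310, 36, 3 and 5. Both tallies hold the responses and vehicle differences of the tested members. Of the differences in response they hold only those of RASA3, RASAL3 and RASGRP2 against Molm-14. The RASGRP3 and RASGRP4 differences that gained a call, given above, are outside both. The number of members called in MV4-11 went from 3 to 6 once the mitochondrial share entered as a covariate and to 6 without the libraries over 10%, and in SKNO-1 from 3 to 5 in a fit of that line alone and to 5 without those libraries. For the difference in response between SKNO-1 and Molm-14 it went from 2 to 1 with no filter and to 4 with voom weights, 4 with the covariate and 4 without those libraries. With 1 library left out, the members called numbered 6 to 7 in Molm-14, 2 to 3 in MV4-11 and 2 to 3 in SKNO-1. In the vehicle comparisons they numbered 5 to 7 (MV4-11 against Molm-14), 5 to 5 (SKNO-1 against Molm-14) and 4 to 7 (SKNO-1 against MV4-11). For the differences in response they numbered 2 to 3 (MV4-11 against Molm-14), 1 to 3 (SKNO-1 against Molm-14) and 0 to 0 (SKNO-1 against MV4-11). The value of 1 came without replicate 1 or 2 of Molm-14 with DMSO, replicate 2 or 3 of SKNO-1 with DMSO, or replicate 1 of SKNO-1 with RMC-4550. The sign changed for RASAL3 in SKNO-1 with median-ratio scaling (0.020) and quantile normalization (0.049), and for RASGRP3 in SKNO-1 against Molm-14 with quantile normalization (-0.12). In SKNO-1 against MV4-11, NF1 became -0.040 with the covariate and -0.024 without the 4 libraries, and RASA1 -0.15 and -0.13. With 1 library left out, sign changes fell within -0.083 to 0.021 for RASAL3 in SKNO-1, -0.29 to 0.14 for RASA1 in MV4-11, -0.031 to 0.17 for RASGRP2 in MV4-11, and -0.15 to 0.15 for NF1 in MV4-11 against Molm-14. The cause of these changes was not tested. Where a group kept 1 library, it was taken to vary like the other groups. None of the 4 libraries is from SKNO-1, so its log2 changes stayed the same without them (NF1 -0.32, RASA1 -0.28). Only the spread that the groups share in the fit differed there. Reads limit RASGRP1 and RASGRP3, for which 3 reads are 0.138 to 0.192 CPM.

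With the replicate number as a block, the members called were 7 for Molm-14, 3 for MV4-11 and 3 for SKNO-1, then 6, 6 and 6 in the vehicle comparisons and 3, 3 and 0 for the differences in response. The block lost the RASAL3 call between MV4-11 and Molm-14 (limma adjusted p 0.077) and gained calls for NF1 in SKNO-1 against Molm-14 (0.036) and for the RASGRP2 difference in response between SKNO-1 and Molm-14 (0.034). Same-numbered DMSO and RMC-4550 libraries correlated in their deviations at -0.40 to 0.59, over 0.1 in 3 of 9 pairs. The labels do not say whether same-numbered cultures were paired, and with 3 replicates in a group these values cannot settle it.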
